A study of Mus musculus with 18 samples.

Results

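Gene expression at 46 h was compared with that at 34 h after dexamethasone in wild type mouse embryonic fibroblasts, a span of 12 h that closes the 24 h cycle sampled. The comparison takes the 3 arrays of each time, 6 of the 18 arrays in all, and covers every gene with a probe set of its own, 19938 genes. Arrays of the other times entered the normalization, the choice of probe sets and the shared estimate of spread behind each SE and p. The cells were connective tissue cells grown from C57BL/6 embryos of embryonic day 13 with head and liver removed, and came from 2 mice. All groups, 22, 26, 30, 34, 40 and 46 h, carried the wild type genotype and had the same treatment, 100 nM dexamethasone for 2 h, so no untreated cells enter the comparison. Dexamethasone is a synthetic glucocorticoid that brings the clocks of cultured cells into a common phase. The labels name the 3 samples of each time biological replicates but say nothing of separate cultures, so a p-value here reflects the scatter among those samples, which may be technical.

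The circadian clock of a fibroblast is a loop in which CLOCK and BMAL1 (encoded by Arntl) switch on the genes of their own repressors, the period and cryptochrome proteins. A second loop runs through the nuclear receptors REV-ERB alpha and beta (Nr1d1 and Nr1d2), which repress Arntl, and the ROR receptors, which activate it through the same DNA element. The proteins encoded by Dbp, Tef and Hlf act on D-box elements of output genes and are opposed there by NFIL3. Cultured fibroblasts also divide, and mitotic genes are transcribed mainly in dividing cells.

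Levels below are log2(intensity + 16) after quantile normalization, differences are 46 h minus 34 h on that scale, and a gene was called at a Benjamini-Hochberg adjusted p under 0.05 in limma. A log2 difference of 1 is a 2-fold change, and folds of dim genes are understated on this scale. Olfactory and vomeronasal receptor genes served as a guide to background, and the level under which 95% of them fall was 7.41 (the receptor level). Where every array of a time lay under it, the change is also given as a fold against that level, with the words at least. Of the 19938 genes 712 were called (3.57%), 211 higher at 46 h (1.06%) and 501 lower (2.51%), and 3107 (15.6%) had an unadjusted p under 0.05. The changes were small for most of them, with a median of 0.31 among the rises and -0.33 among the falls. At least 2-fold changes were called for 2 rises and 2 falls, and at least 1.5-fold changes for 16 rises and 90 falls. The split between rises and falls moved with the scaling of the arrays: 29.6% of the calls were rises here, 44.4% of 690 with the values as deposited (306 higher, 384 lower) and 12.4% of 1234 with each array centred on its median (153 higher, 1081 lower). The count also rested on single arrays, since 314 genes were called without replicate 2 at 34 h and 295 without replicate 3 at 46 h. The median difference over all genes was -0.01. These shares of all genes, 3.57% called, 1.06% higher and 2.51% lower, are the background for every list count below. A single call in a list does not set that list apart from them.

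**Figure D1:**
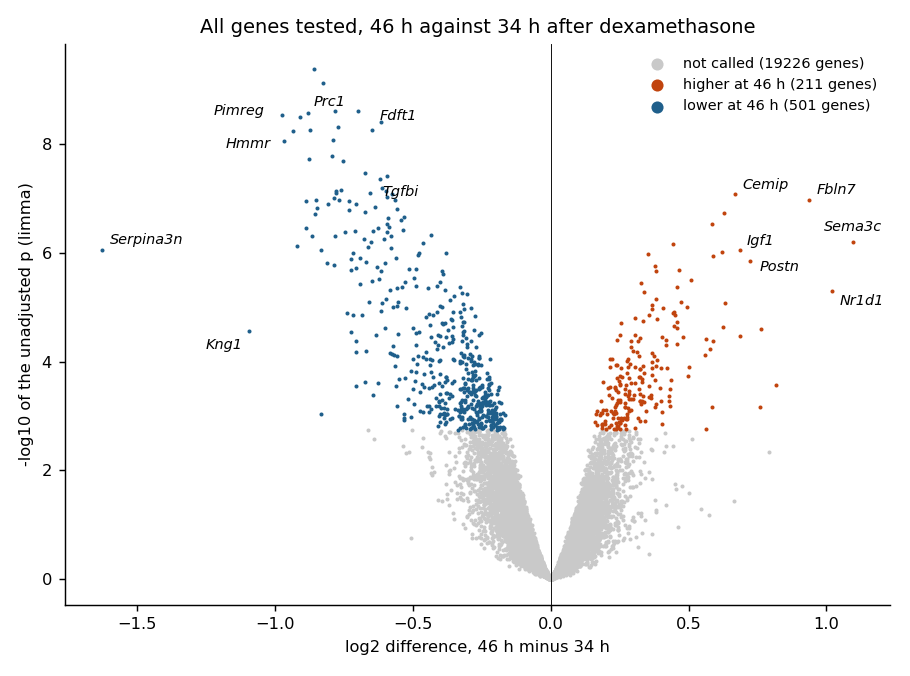
The log2 difference between 46 h and 34 h (x axis) is plotted against -log10 of the unadjusted limma p (y axis) for all 19938 genes, with the 211 called rises in orange, the 501 called falls in blue and the rest in grey. Falls are more numerous and reach smaller p, while Sema3c, Nr1d1, Serpina3n and Kng1 are the 4 called genes past 2-fold.

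Among clock genes, those that passed the test were nuclear receptors of the second loop. Of 20 measured core clock genes, 3 were called, all higher at 46 h (15%, beside 1.06% of all genes), and 17 were not called. Nr1d1 (chr11:98767932-98775377, GRCm38.p6) stood at 8.93, 9.23 and 9.08 in the 3 arrays at 34 h and at 10.09, 10.28 and 9.92 at 46 h. Every 46 h array lay above every 34 h array. The rise was 1.02 ± 0.16 (SE, n = 3 arrays per time; 2.03-fold, adjusted p = 0.000839), and its call held with any 1 of the 6 arrays left out. At 40 h the mean had already reached 9.71.

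Nr1d2, which encodes REV-ERB beta, stood at 9.77, 9.83 and 9.50 at 34 h and at 10.32, 10.35 and 10.19 at 46 h, again without overlap. The rise was 0.58 ± 0.14 (adjusted p = 0.026). Dropping any 1 of the 6 arrays ended this call, with adjusted p between 0.0504 (replicate 1 at 34 h dropped) and 0.122 (replicate 3 at 34 h dropped). Rora, which encodes the opposing activator ROR alpha, stood at 10.13, 10.14 and 10.18 at 34 h and at 10.38, 10.36 and 10.32 at 46 h. Its rise of 0.20 ± 0.05 (1.15-fold) lay at the threshold (adjusted p = 0.0492) and was also lost without any 1 of the 6 arrays (adjusted p from 0.0842 to 0.165). With each array centred on its median the adjusted p for Rora was 0.13.

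The period and cryptochrome genes did not pass. Per1, a period gene that glucocorticoids also induce directly, had levels of 9.27, 9.23 and 9.35 at 34 h and 9.46, 9.64 and 9.71 at 46 h. These groups did not overlap, as in 22.7% of all genes in either direction, but the difference of 0.32 ± 0.09 missed the threshold (adjusted p = 0.0721). The difference passed, for example, without replicate 2 at 40 h (adjusted p = 0.0257) or without replicate 2 at 22 h (adjusted p = 0.0445). Over 31 alternative settings the limma adjusted p for Per1 ran from 0.0131 to 0.295. For Per2 the difference was -0.04 ± 0.07, for Per3 0.06 ± 0.14, for Cry1 -0.11 ± 0.05 and for Cry2 -0.03 ± 0.06. The sign of the Per2 and Cry2 differences turned with the values as deposited (0.03 and 0.04), and that of Per3 without replicate 1 at 46 h (-0.02). These small differences do not describe a flat course. Midway, the 40 h mean was 7.20 for Per2, 7.22 for Per3, 8.03 for Cry1 and 7.41 for Cry2. For each of them every 40 h array lay below all arrays of both compared times. No contrast with 40 h was tested. Per3 had the largest dip, a change of -0.54 until 40 h followed by 0.60.

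The D-box genes lay higher at 46 h without being called. Dbp stood at 9.09, 9.03 and 9.004 at 34 h and at 9.33, 9.45 and 9.20 at 46 h, a difference of 0.29 ± 0.11 (adjusted p = 0.198). Tef differed by 0.23 ± 0.09 (adjusted p = 0.191) and Hlf by 0.17 ± 0.07 (adjusted p = 0.195). For all 3 the arrays of 46 h lay above those of 34 h. Of all 19938 genes, 1957 had every 46 h array above the 34 h arrays and 2578 had every one below. The D-box repressor gene Nfil3 lay lower in every 46 h array, from 8.62 to 8.75 against 8.82 to 8.96. Its difference of -0.23 ± 0.07 was not called (adjusted p = 0.0815). It passed, for example, with each array centred on its median (adjusted p = 0.0305). Over 31 alternative settings the limma adjusted p for Nfil3 ran from 0.0182 to 0.295.

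Among the activators and E-box repressors, Arntl stood at 9.74, 9.62 and 9.57 at 34 h and 9.56, 9.48 and 9.63 at 46 h, and the groups overlapped (-0.09 ± 0.10, adjusted p = 0.771). Clock differed by 0.07, Arntl2 by -0.01, Bhlhe40 by -0.24, Bhlhe41 by -0.06, Ciart by -0.27, Timeless by -0.16 and Rorb by -0.15, and none was called. Ciart and Bhlhe40 encode repressors of CLOCK and BMAL1. The arrays of both times lay under the receptor level for Ciart and Rorb, so their differences are of levels not above background. Clock kinases and ubiquitin ligases were tested as a list of 13 genes. limma called 0 of them (beside 3.57% of all genes), with 1 at an unadjusted p under 0.05 (15.6% of all genes), and differences ran from -0.33 to 0.08. A list of this size holds too few genes to set 0 calls apart from the share over all genes. Of 21 measured output genes 1 was called, Pdk4, which is near the 3.57% of all genes. Pdk4 encodes a kinase that shuts off pyruvate dehydrogenase and is also induced by glucocorticoids (0.34 ± 0.06, adjusted p = 0.00223).

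**Figure D2:**
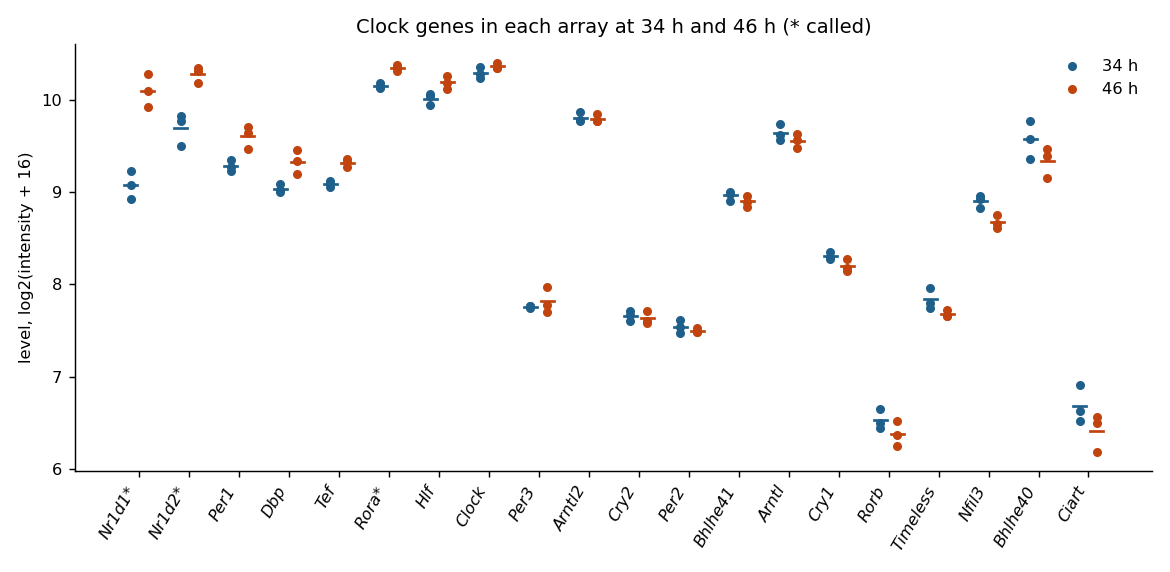
Levels of the 20 core clock genes, as log2(intensity + 16), in each array at 34 h (blue) and 46 h (orange), with short bars at the means and genes ordered by their difference. An asterisk marks the 3 called genes, and Nr1d1 is the gene whose 2 groups lie farthest apart.

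Promoters of the called clock genes were searched for clock elements. RefSeq promoter windows of 250 bases before to 50 after the start were searched on both strands for the E-box CACGTG, which 7.15% of all 32851 windows held. Of 24 windows of the core clock genes 6 held one (25%), in Bhlhe41, Ciart, Cry1, Per1 and Tef. None of the 3 windows of Nr1d1, Nr1d2 and Rora held these letters, and 1 of the 3 held the related E-prime box CACGTT (4.68% of all windows). Lack of a match says only that the letters are not in these windows.

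Genes of mitosis formed the list with the most falls. Of 35 measured G2/M genes 33 fell and 0 rose, with a list median of -0.72 beside -0.01 over all genes. The 3 arrays of 46 h had list medians of -0.66, -0.84 and -0.67 relative to the mean of 34 h, against -0.07 to 0.05 in the arrays of 34 h. Most of the fall had taken place by 40 h, with a list median of -0.52 from 34 to 40 h and -0.21 from 40 to 46 h. In bulk RNA a smaller share of dividing cells cannot be told apart from less RNA per dividing cell.

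Hmmr, which encodes a spindle-associated hyaluronan receptor, stood at 9.11, 9.05 and 8.93 at 34 h and at 8.16, 7.86 and 8.17 at 46 h. It fell by 0.97 ± 0.09 (SE, n = 3 per time; 1.96-fold, adjusted p = 1.25e-05). Pimreg, a gene highly expressed in mitosis, fell from 9.21, 9.40 and 9.18 to 8.44, 8.08 and 8.35 (-0.97 ± 0.09). In both genes the highest array of 46 h lay below the lowest of 34 h by more than the range of either group.

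Motor proteins of the spindle fell alongside. Kif2c, which encodes a kinesin that takes microtubules apart at the centromere, fell from 9.14, 9.16 and 9.03 to 8.24, 8.07 and 8.23 (-0.93 ± 0.09, adjusted p = 9.54e-06). Kif4, a kinesin that binds chromosomes, fell by 0.88 ± 0.10 (at least 1.6-fold, with its 46 h arrays under the receptor level), and Cenpe, the kinesin of the kinetochore, by 0.89 ± 0.11. Prc1, which bundles the microtubules of the midzone, fell from 9.65, 9.73 and 9.48 to 8.77, 8.73 and 8.72 (-0.88 ± 0.08). Aspm, which acts at spindle poles, fell by 0.91 ± 0.08, and Ckap2l, another spindle gene, by 0.87 ± 0.09. The 46 h arrays of each lay below all their 34 h arrays.

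Regulators of mitotic entry were lower as well. Ccnb2, which encodes cyclin B2, fell from 10.63, 10.65 and 10.44 to 9.90, 9.33 and 9.74 (-0.92 ± 0.12), with replicate 2 at 46 h the lowest array. Cdc25c, the phosphatase that activates the mitotic kinase, fell by 0.87 ± 0.08 (adjusted p = 9.54e-06). Aurka, the spindle pole kinase, fell by 0.70 ± 0.06 and its activator Tpx2 by 0.77 ± 0.07. All of the mitotic genes named so far kept their calls with any 1 of the 6 arrays left out. The 2 list members that were not called were Nuf2, a kinetochore gene (-0.66 ± 0.18, adjusted p = 0.0503), and Cdk1, the mitotic kinase itself. Cdk1 stood at 11.37, 11.06 and 11.03 at 34 h and at 11.02, 10.73 and 11.03 at 46 h, so its groups overlapped (-0.23 ± 0.12, adjusted p = 0.392).

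Promoters of this list often held the core of the cell cycle homology region, an element through which the DREAM complex represses mitotic genes outside of mitosis. The letters TTTGAA, on either strand, were found in 25 of 31 promoter windows of the list (80.6%), from 23 of the 29 genes with a window. The share was 17.9% of all 32851 windows and 14.8% of the windows of genes tested. It was 24.5% of 469 windows of the genes called lower and 10.8% of 212 windows of those called higher. A match is a description of letters and not a binding site. The stretches below are from RefSeq (GRCm38.p6), 100 bases read 5′ to 3′ on the gene's strand with the matching letters in capitals (TTCAAA is the match on the other strand). Kif2c was chosen from the largest falls, and Cdk1 and Top2a after their values were seen, to show a member that was not called and one of the smaller falls (Top2a, DNA topoisomerase II alpha, -0.51 ± 0.10, adjusted p = 0.00996). The Kif2c stretch lies at chr4:117178796-117178895, minus strand, the Cdk1 stretch at chr10:69352913-69353012, minus strand, and the Top2a stretch at chr11:99024190-99024289, minus strand. The Kif2c stretch falls inside the gene as annotated (chr4:117159633-117182624), so its window belongs to an internal start and not to the 5′ end of the gene.
Kif2c: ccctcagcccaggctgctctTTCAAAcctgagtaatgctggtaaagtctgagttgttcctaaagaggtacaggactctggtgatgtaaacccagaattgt
Cdk1: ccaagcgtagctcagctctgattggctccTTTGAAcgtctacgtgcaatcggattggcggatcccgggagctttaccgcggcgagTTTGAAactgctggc
Top2a: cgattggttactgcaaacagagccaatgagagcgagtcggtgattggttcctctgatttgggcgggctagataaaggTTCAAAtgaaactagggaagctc
All 3 genes share the letters, whereas their differences ran from -0.93 in Kif2c to -0.23 in Cdk1.

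Of the genes of DNA replication a minority was called lower. Of 30 measured G1/S and replication genes 6 were called lower and 0 higher, with a list median of -0.19. The differences of 26 of the 30 lay below 0, beside 10484 of all 19938 genes, and 15 had an unadjusted p under 0.05 (15.6% of all genes). Uhrf1, which copies DNA methylation marks behind the fork, stood at 8.68, 8.96 and 8.72 at 34 h and at 8.37, 8.34 and 8.28 at 46 h (-0.45 ± 0.09, adjusted p = 0.00563). Its call held with any 1 of the 6 arrays left out. Cdc45, part of the replicative helicase, fell by 0.35 ± 0.07 and lost its call without replicate 3 at 46 h (adjusted p = 0.052). The exonuclease gene Exo1 fell by 0.43 ± 0.09 and lost its call without replicate 2 at 34 h (adjusted p = 0.0673). The thymidine kinase gene Tk1 fell by 0.32 ± 0.07 and was lost without replicate 2 at 34 h (adjusted p = 0.0857) and without replicates 2 or 3 at 46 h (adjusted p = 0.0616 and 0.0633). The count for the list was 2 without replicate 2 at 34 h or without replicate 3 at 46 h, and 3 without replicate 2 at 46 h. Most of the list's change preceded 40 h, with a median of -0.15 to 40 h and -0.0033 after it.

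Other cell cycle regulators were mostly uncalled. Of 14 D cyclins, inhibitors and pocket protein genes 2 fell. Cdkn2c, which encodes the inhibitor p18, fell from 9.49, 9.49 and 9.45 to 9.17, 9.15 and 9.24 (-0.29 ± 0.05, adjusted p = 0.00394). Cdkn2b, which encodes the related p15, fell by 0.21 ± 0.06 (adjusted p = 0.0388), a call lost without any 1 of 5 arrays (all but replicate 2 at 46 h, adjusted p from 0.0608 to 0.241). Of 14 p53 target genes 1 rose, the stress-induced Gadd45a, too few to set the list apart from all genes (1.06% called higher). Gadd45a went from 9.95, 9.92 and 9.95 to 10.29, 10.21 and 10.25 (0.31 ± 0.05, adjusted p = 0.00334).

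Genes of cholesterol synthesis fell nearly throughout the pathway. Of 20 measured genes 16 fell and 0 rose, with a list median of -0.45, and all 20 had 46 h arrays entirely below their 34 h arrays, as 22.7% of all genes had groups without overlap in either direction. The arrays of 46 h had list medians of -0.40, -0.41 and -0.48 relative to the mean of 34 h, against -0.03 to 0.03 at 34 h. The fall was spread over both steps, -0.27 to 40 h and -0.18 from 40 to 46 h.

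Fdft1, which encodes squalene synthase, the first enzyme committed to sterols, stood at 10.88, 10.71 and 10.79 at 34 h and at 10.10, 10.18 and 10.15 at 46 h. It fell by 0.65 ± 0.06 (SE, n = 3 per time; 1.57-fold, adjusted p = 9.54e-06). Fdps, which makes the farnesyl substrate of that enzyme, fell from 10.30, 10.40 and 10.30 to 9.73, 9.79 and 9.72 (-0.59 ± 0.07), and Lss, lanosterol synthase, from 9.25, 9.31 and 9.28 to 8.79, 8.78 and 8.68 (-0.53 ± 0.06). The gap between the groups of each exceeded the range within either group. Insig1, a sterol sensor that holds back the activator SREBP, fell as well, from 10.16, 10.09 and 9.99 to 9.53, 9.50 and 9.54 (-0.56 ± 0.06). Calls of these 4 genes held with any 1 of the 6 arrays left out. Idi1, an isomerase of the same branch, had the lowest difference of the list at -0.83 ± 0.21 (adjusted p = 0.0318). The 4 genes that were not called were Mvk, Sc5d, Pmvk and Ebp, at -0.26 to -0.13.

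Hmgcs1, HMG-CoA synthase, which feeds the pathway, was the one list member with the sterol element TCACCCCAC in its promoter window, and was chosen for display after its value was seen. It stood at 9.98, 9.99 and 9.96 at 34 h and at 9.54, 9.56 and 9.45 at 46 h (-0.46 ± 0.06, adjusted p = 0.000197). The element was in 1 of 19 windows of the list (5.26%) beside 0.551% of all windows, so for the other genes nothing follows about the factor. The stretch, at chr13:119690194-119690293 on the plus strand (GRCm38.p6, RefSeq), has the element in capitals.
Hmgcs1: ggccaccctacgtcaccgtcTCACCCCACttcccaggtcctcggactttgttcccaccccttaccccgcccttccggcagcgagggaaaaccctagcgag
The run of capitals starts at position -137 relative to the start site.

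Fatty acid synthesis genes were called lower in part. Of 14 measured genes 5 were called lower and 0 higher, with a median of -0.20. The differences of 13 of the 14 lay below 0, and 9 had an unadjusted p under 0.05 (15.6% of all genes). Acaca, acetyl-CoA carboxylase, stood at 10.25, 10.28 and 10.22 at 34 h and at 9.98, 10.00 and 9.97 at 46 h (-0.27 ± 0.05, adjusted p = 0.00472). Scd1, the desaturase, fell from 11.86, 11.89 and 11.88 to 11.50, 11.65 and 11.53 (-0.32 ± 0.06), and Elovl6, an elongase, by 0.29 ± 0.06. These 3 calls held with any 1 of the 6 arrays left out. Me1, malic enzyme, fell by 0.32 ± 0.08 (adjusted p = 0.0278) and kept its call only where replicate 1 at 46 h was the array left out (adjusted p between 0.0591 and 0.114 otherwise). The list count was 3 without any 1 of the 34 h arrays or without replicate 3 at 46 h, and 8 with arrays centred on the median.

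**Figure D3:**
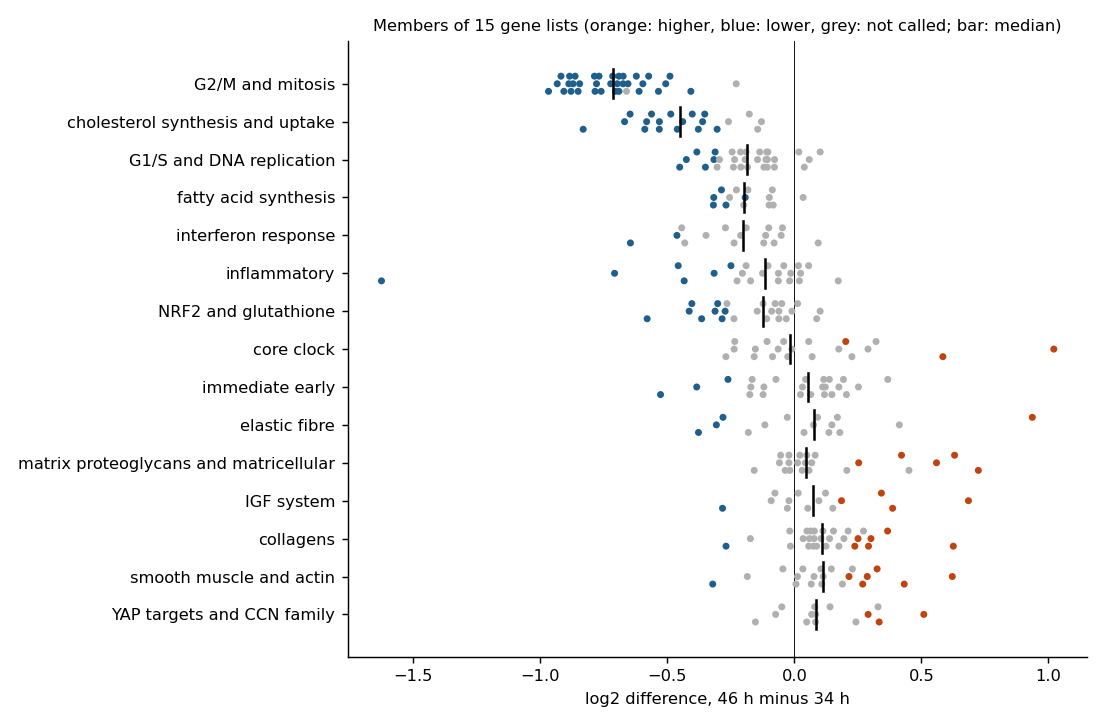
Each dot is one measured gene of 15 gene lists, placed at its log2 difference between 46 h and 34 h (x axis), in orange if called higher, blue if called lower and grey if not called, with a black bar at the list median. The G2/M and cholesterol lists lie wholly below 0 (medians -0.72 and -0.45), and most other lists straddle it.

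Secreted and matrix proteins were among the genes that rose. Sema3c, a secreted guidance protein, had the largest called rise. It stood at 9.07, 8.83 and 9.38 at 34 h and at 10.22, 10.09 and 10.26 at 46 h (1.09 ± 0.14, 2.14-fold, adjusted p = 0.000189). The other 13 measured class 3 semaphorin and receptor genes were not called, with differences from -0.12 to 0.20. Fbln7, a fibulin, rose from 8.32, 8.42 and 8.21 to 9.17, 9.11 and 9.47 (0.94 ± 0.11, adjusted p = 6.2e-05). Both calls held with any 1 of the 6 arrays left out.

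Matricellular proteins, which bind matrix and signal to cells, were called in 1 direction. Of 22 measured matricellular and proteoglycan genes 5 rose and 0 fell, with a median of 0.05. Postn, periostin, stood at 12.01, 11.89 and 12.16 at 34 h and at 12.76, 12.67 and 12.80 at 46 h (0.72 ± 0.10, adjusted p = 0.000324). Thbs2, thrombospondin 2, rose from 11.76, 11.65 and 11.87 to 12.41, 12.35 and 12.42 (0.63 ± 0.10), Lum, the proteoglycan lumican, by 0.56 ± 0.11 and Sparc, which binds collagen, by 0.25 ± 0.05. The calls of these 4 genes held with any 1 of the 6 arrays left out. The rest of the list centred near 0, with fibronectin (Fn1) at 0.06 and decorin (Dcn) at -0.02.

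Collagens were called in both directions. Of 28 measured collagen and collagen-modifying genes 6 rose and 1 fell, and the median was 0.11. Col10a1, a collagen known from growth plate cartilage, rose from 8.29, 8.41 and 8.33 to 8.97, 8.85 and 9.09 (0.63 ± 0.11, adjusted p = 0.00261). Col11a1, of fibrillar collagen XI, rose by 0.37 ± 0.06 and Col4a5, of basement membranes, by 0.29 ± 0.05, and these 3 calls held with any 1 of the 6 arrays left out. Col12a1 rose by 0.30 ± 0.07 (adjusted p = 0.0192) and lost its call without replicate 1 or 2 at 34 h (adjusted p = 0.0615 and 0.116) or replicate 3 at 46 h (0.141). The collagens I, which fibroblasts make most of, were not called (Col1a1 0.18, Col1a2 0.14). Without replicate 1 at 34 h or replicate 3 at 46 h the count of collagen rises was 3. The fall of Col14a1 (-0.27, adjusted p = 0.0257) was not called with the values as deposited.

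The fibulins and other elastic fibre genes went both ways. Of 15 measured genes 1, Fbln7, rose and 3 fell. Fbln1 stood at 9.26, 9.36 and 9.25 at 34 h and at 9.01, 9.13 and 8.88 at 46 h (-0.28 ± 0.07, adjusted p = 0.0222), and Fbln2 at 12.15, 12.25 and 12.08 and at 11.87, 11.94 and 11.74 (-0.31 ± 0.06, adjusted p = 0.00905). Ltbp2, a latent TGF-beta binding protein, fell by 0.38 ± 0.08 (adjusted p = 0.0118). All 3 calls were lost without replicate 2 at 34 h (adjusted p = 0.126, 0.0692 and 0.0657) and without replicate 3 at 46 h (0.156, 0.0761 and 0.0862), and those of Fbln1 and Ltbp2 also without replicate 1 at 46 h (0.064 and 0.0526).

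Matrix proteases were likewise divided. Of 22 measured genes 4 rose and 2 fell. Plau, urokinase, rose from 9.58, 9.53 and 9.63 to 10.14, 10.13 and 10.22 (0.58 ± 0.07, adjusted p = 0.000119), and Mmp2, gelatinase A, from 13.36, 13.30 and 13.33 to 13.57, 13.58 and 13.60 (0.26 ± 0.04). The call for Mmp2 held with any 1 of the 6 arrays left out but not with each array centred on its median (adjusted p = 0.0969). Adamts9 rose by 0.38 ± 0.08 and was lost without replicate 2 at 34 h (adjusted p = 0.0907) or replicate 1 at 46 h (0.0688). Mmp19 fell by 0.32 ± 0.06 and was lost without replicate 2 at 34 h (adjusted p = 0.0564) or replicate 3 at 46 h (0.0606). Other large rises were those of Cemip, which breaks down hyaluronan (0.67 ± 0.08, adjusted p = 5.94e-05), Pi15, a secreted protein with protease inhibitor activity (0.76 ± 0.13), Dhrs3, a retinal reductase (0.69 ± 0.12), and Ehd4, an endosomal ATPase (0.63 ± 0.08).

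Growth factor genes of the IGF system were among the rises. Igf1, insulin-like growth factor 1, stood at 10.68, 10.63 and 10.83 at 34 h and at 11.36, 11.40 and 11.44 at 46 h (0.69 ± 0.09, 1.61-fold, adjusted p = 0.00024). Of 14 measured genes of the system 4 rose and 1 fell, and both receptors, Igf1r and Igf2r, were uncalled at -0.03 and 0.01. Proteases that cut IGF-binding proteins were called as well. Htra1 rose by 0.39 ± 0.08 and was lost without replicate 2 at 34 h (adjusted p = 0.0515). Pappa rose by 0.34 ± 0.09 (adjusted p = 0.0384) and kept its call only where replicate 1 at 34 h was left out (up to 0.175 otherwise). Igfbp6, a binding protein, fell by 0.28 ± 0.06 and was lost without replicate 2 at 34 h (adjusted p = 0.0723) or replicate 3 at 46 h (0.0735).

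Contractile genes were called higher in part. Of 20 measured smooth muscle and actin genes 6 were called higher and 1 lower, with a median of 0.11. The differences of 17 of the 20 lay above 0 and those of 3 below. Mylk, myosin light chain kinase, stood at 9.89, 9.84 and 10.01 at 34 h and at 10.48, 10.50 and 10.63 at 46 h (0.62 ± 0.08, adjusted p = 0.000254), and its call held with any 1 of the 6 arrays left out. Its substrate gene Myl9 rose by 0.43 ± 0.10, smooth muscle actin (Acta2) by 0.29 ± 0.06 and tropomyosin 2 (Tpm2) by 0.21 ± 0.04. Those 3 calls were lost without replicate 3 at 46 h (adjusted p = 0.0595, 0.0622 and 0.0595), which left 1 rise in the list, and Tpm2 was also lost with each array centred on its median (0.0544). Myl9 was also lost without replicates 1 or 3 at 34 h or replicate 2 at 46 h (0.0657, 0.0537 and 0.0693). Without replicate 1 at 34 h the list held 3 rises, and with the values as deposited it held no fall. Acta2 stood at 13.15, 13.08 and 13.06 at 34 h and at 13.42, 13.29 and 13.45 at 46 h, so its groups did not overlap.

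YAP targets and TGF-beta genes were called in part. Ccn1, a matrix-associated target of YAP, rose from 10.23, 10.08 and 10.06 to 10.66, 10.59 and 10.64 (0.51 ± 0.08, adjusted p = 0.000597), 1 of 3 rises among 14 measured genes of that list. Tgfb2 rose by 0.33 ± 0.08 (adjusted p = 0.0197), a call kept only where replicate 3 at 34 h was left out (up to 0.0866 otherwise). Ccn2 of the same list rose by 0.29 ± 0.07 (adjusted p = 0.0215). Its call was lost without replicates 2 or 3 at 34 h or replicates 1 or 3 at 46 h (up to 0.107), and with each array centred on its median. Of 21 BMP and TGF-beta genes 3 rose and 2 fell. Bmp4 rose from 9.55, 9.56 and 9.68 to 9.86, 10.08 and 10.11 (0.42 ± 0.08, adjusted p = 0.00384), and its antagonist follistatin (Fst) by 0.37 ± 0.07, the latter lost without replicate 3 at 46 h (adjusted p = 0.0515). Tgfbi, a TGF-beta-induced matrix protein, fell from 11.01, 11.06 and 10.88 to 10.43, 10.42 and 10.19 (-0.64 ± 0.07, adjusted p = 7.32e-05).

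Inflammatory genes were lower at 46 h where they were called. Serpina3n, an acute-phase inhibitor of serine proteases from a cluster of close copies, had the largest fall of all called genes. It stood at 10.41, 10.42 and 10.18 at 34 h and at 8.69, 8.99 and 8.45 at 46 h (-1.63 ± 0.22, 3.09-fold, adjusted p = 0.000239). The 40 h mean was 9.81, between the groups. Of 22 measured inflammatory genes 6 fell and 0 rose, with a median of -0.11, and 3 fell without replicate 2 at 34 h or replicate 3 at 46 h. The chemokine gene Ccl5 fell from 8.59, 8.76 and 8.73 to 8.05, 8.17 and 7.73 (-0.71 ± 0.09, adjusted p = 0.00014), while its 40 h mean of 9.31 was above both. Tnfaip3, a brake on NF-kappaB, fell by 0.32 ± 0.06, and Ccl7, another chemokine, by 0.46 ± 0.10, the latter lost without replicate 2 at 34 h (adjusted p = 0.0554) or replicate 3 at 46 h (0.0624). Il6, Cxcl1 and Icam1 were not called (-0.17, 0.02 and 0.06). Kng1, kininogen, the precursor of bradykinin, was called lower, from 7.83, 7.60 and 7.52 to 6.79, 6.62 and 6.26 (-1.09 ± 0.19, adjusted p = 0.00298). Its 46 h arrays all lay under the receptor level, so the measured 2-fold is open to background, and against that level the fall was at least 1.18-fold.

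Interferon response genes were called lower in 2 of 16 cases and higher in 0. Relative to the mean of 34 h the list medians were -0.17, 0.08 and 0.08 in the 34 h arrays and -0.21, -0.24 and -0.18 in those of 46 h, so replicate 1 at 34 h stood nearer to the 46 h arrays than to its own group. Usp18, an interferon-induced protease, stood at 7.84, 8.61 and 8.36 at 34 h and at 7.50, 7.54 and 7.83 at 46 h (-0.65 ± 0.15, adjusted p = 0.0191), and Irf7, which drives interferon genes, at 7.31, 7.65 and 7.65 and at 6.93, 7.22 and 7.07 (-0.46 ± 0.11, adjusted p = 0.03). Replicate 1 at 34 h was the lowest array of its group for both. Without it the adjusted p was 0.000713 for Usp18 and 0.0123 for Irf7. Without replicate 2 at 34 h it was 0.125 and 0.161, without replicate 3 at 34 h 0.0762 and 0.122, and without replicate 1 at 46 h 0.0864 and 0.136. Usp18 was also lost without replicate 2 at 46 h (0.0691) and Irf7 without replicate 3 at 46 h (0.111) and with the values as deposited (0.0797), where 1 gene of the list was called. With arrays centred on the median 5 were. The 46 h arrays of Irf7 lay under the receptor level, against which it fell at least 1.09-fold.

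Glutathione transferases, which join glutathione to reactive compounds, fell together with the NRF2 target Nqo1. Of 23 measured genes of the list 8 fell and 0 rose, with a median of -0.12. Nqo1, a quinone reductase, stood at 7.69, 7.65 and 7.55 at 34 h and at 7.22, 6.98 and 6.95 at 46 h (-0.58 ± 0.07, adjusted p = 0.00016), the latter under the receptor level (a fall of at least 1.16-fold). The other 7 falls were transferases, 6 of the mu class and Gstt1 of the theta class. Gstm7 fell from 8.41, 8.41 and 8.39 to 8.04, 8.004 and 8.07 (-0.37 ± 0.06), Gstm3 by 0.31 ± 0.06 and Gstm1 by 0.40 ± 0.08. Mu class genes are close copies of each other, so a probe set may pick up more than 1 of them. The call for Gstm1 was lost without replicate 2 at 34 h (adjusted p = 0.0583), where the list count was 3. It was 4 without replicate 3 at 46 h, and 5 without replicate 3 at 34 h or replicate 1 at 46 h. NRF2 targets of glutathione synthesis, Gclc and Gclm, were not called (-0.09 and -0.15).

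Transcription factors of the early response were called in few cases. Of 24 measured immediate early genes 3 fell: Fosl1, a partner of JUN in AP-1 (-0.53 ± 0.11), Myc (-0.38 ± 0.09) and Nr4a2 (-0.26 ± 0.06). The list median was 0.05, and with the values as deposited 2 members were called higher beside 3 lower. Fosl1 was lost without replicate 2 at 34 h (adjusted p = 0.0884) or replicate 3 at 46 h (0.0888). Myc kept its call only where replicate 3 at 34 h was left out (up to 0.106 otherwise) and Nr4a2 only where replicate 2 at 46 h was (up to 0.166). Of 15 Kruppel-like factor genes 2 rose, Klf5 from 9.66, 9.60 and 9.55 to 9.94, 9.92 and 10.06 (0.37 ± 0.07, lost without replicate 3 at 46 h, adjusted p = 0.0672) and Klf11 (0.33 ± 0.08, adjusted p = 0.0228). Leaving out replicate 1 or 2 at 34 h, or 1 or 3 at 46 h, ended the call for Klf11 (adjusted p = 0.0921, 0.0791, 0.115 and 0.0595). Of 22 glucocorticoid targets, Pdk4 rose, and Ddit4, an inhibitor of mTORC1, and the metallothionein gene Mt2 fell (-0.27 ± 0.07 each, adjusted p = 0.0324 and 0.0388). Ddit4 was lost without any 1 array but replicate 2 at 46 h (adjusted p up to 0.189) and Mt2 without replicates 1 and 2 at 34 h and 1 and 3 at 46 h (up to 0.211). With the values as deposited Mt2 was not called (adjusted p = 0.0653) and the list had 2 rises and 1 fall. Fkbp5 and Tsc22d3, widely used reporters of glucocorticoid action, were not called (0.06 and 0.02).

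Prostaglandin genes were called in 3 of 12 cases. Ptgfr, the receptor of prostaglandin F2 alpha, fell from 8.57, 8.51 and 8.52 to 8.09, 7.95 and 8.08 (-0.50 ± 0.07, adjusted p = 0.000566), and its call held with any 1 of the 6 arrays left out. Ptgds, prostaglandin D synthase, rose by 0.33 ± 0.07 and was lost without replicates 1 or 2 at 34 h or replicate 1 at 46 h (adjusted p = 0.0619, 0.0673 and 0.0741). Ptger1, a receptor of prostaglandin E2, fell by 0.28 ± 0.07 and was lost without replicate 2 at 34 h or any 1 of the 46 h arrays (adjusted p = 0.199, 0.105, 0.0696 and 0.161). It was not called with the values as deposited (0.0944), where the list had 2 rises and 1 fall in place of 1 rise and 2 falls, and its 46 h arrays lay under the receptor level (a fall of at least 1.07-fold). In the list of 21 glycolysis and hypoxia genes 1 was called, Adm, which is near the 3.57% of all genes. Adm, the vasodilator adrenomedullin, rose from 8.9996, 9.05 and 9.19 to 9.48, 9.41 and 9.69 (0.45 ± 0.08, adjusted p = 0.00179). The other 20 genes of that list lay between -0.37 and 0.15, and 3 were called lower with arrays centred on the median. In the list of 19 ATF4 targets 1 was called, Psat1 of serine synthesis, again near the share over all genes. Psat1 was at -0.28 ± 0.07 (adjusted p = 0.028), a call kept only where replicate 3 at 46 h was left out (up to 0.113 otherwise).

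**Figure D4:**
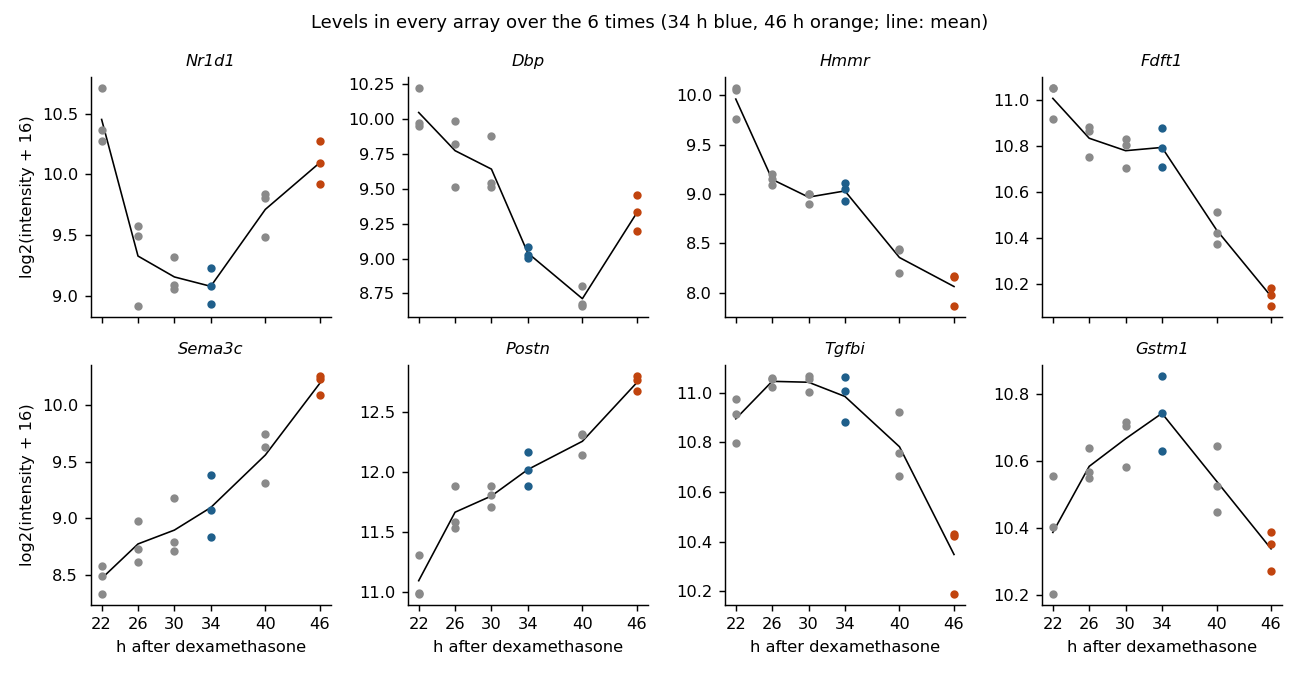
Levels, log2(intensity + 16), of 8 genes in every array at 22, 26, 30, 34, 40 and 46 h (x axis), with 34 h in blue, 46 h in orange, other times in grey and a line through the means. Nr1d1 and Dbp turn upward within the second 12 h, Hmmr and Fdft1 go on falling, Sema3c and Postn go on rising, and Tgfbi and Gstm1 are lower at 46 h than at 34 h.

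MicroRNA genes gave 7 rises and 0 falls among 297 tested (2.36%, beside 1.06% of all genes called higher and 2.51% called lower). MicroRNAs pair through bases 2 to 8, the seed, with messages they repress. Whole-transcript probe sets on these genes read the precursor or its host transcript and not the mature strand alone. Mir181b-1 stood at 8.42, 8.21 and 8.45 at 34 h and at 9.13, 8.97 and 9.42 at 46 h (0.82 ± 0.18, adjusted p = 0.0148), and was lost without replicate 2 at 34 h (adjusted p = 0.0872) or replicate 3 at 46 h (0.102). Mir99a stood at 7.66, 7.53 and 7.81 and at 8.21, 8.36 and 8.70 (0.76 ± 0.18, adjusted p = 0.0265), and was lost without replicates 1 or 2 at 34 h (0.0711 and 0.134) or 2 or 3 at 46 h (0.0548 and 0.167). Mir10a (0.41), Mir665 (0.43), Mir680-3 (0.26), Mir145a (0.32) and Mir143 (0.30) were chosen for mention after their values were seen. The mature 5p strands of the first 3 genes are given from RefSeq (GRCm38.p6), with the seed in capitals, at chr1:137966650-137966673, chr16:77598940-77598961 and chr11:96317186-96317208, all on the plus strand.
mmu-miR-181b-5p: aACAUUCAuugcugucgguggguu
mmu-miR-99a-5p: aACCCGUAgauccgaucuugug
mmu-miR-10a-5p: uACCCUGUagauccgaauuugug
The 3 seeds differ from each other, so no seed was shared among them.

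The change over these 12 h was then set against that over the first, from 22 to 34 h. The 34 h arrays enter both changes, so the difference between them was tested as its own contrast, (46 h minus 34 h) minus (34 h minus 22 h). It called 27 genes (0.135%), 8 higher and 19 lower, and 2398 genes had an unadjusted p under 0.05. Of the 27 genes 18 were also called between 34 and 46 h. The count was 2 when replicate 2 at 34 h was dropped and 138 when replicate 2 at 22 h was.

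Clock genes made up 5 of these calls. Nr1d1 fell by 1.38 over the first 12 h, from 10.37, 10.71 and 10.28 at 22 h, and rose by 1.02 over the second (difference 2.40 ± 0.27, adjusted p = 0.00168). Nr1d2 changed by -1.31 and then by 0.58 (difference 1.90 ± 0.24, adjusted p = 0.00523), from 11.08, 10.88 and 11.08 at 22 h. These were the only 2 of the 16 genes named for this contrast whose calls held with any 1 of the 9 arrays of 22, 34 and 46 h left out. Dbp changed by -1.01 and 0.29 (difference 1.29 ± 0.19, adjusted p = 0.0133; lost without 3 of the 9 arrays) and Tef by -0.62 and 0.23 (0.84 ± 0.15, adjusted p = 0.0366; lost without 8 of the 9). Cry1 went the other way, 0.47 and then -0.11 (difference -0.57 ± 0.08, adjusted p = 0.01). Arntl, a gene that the REV-ERB receptors repress, rose from a mean of 8.94 at 22 h to 9.64 at 34 h and stood at 9.56 at 46 h.

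Transferases made up 4 more calls, all lower. Gstt1 rose by 0.55 over the first 12 h and fell by 0.30 over the second (difference -0.85 ± 0.12, adjusted p = 0.00835; lost without 2 of the 9 arrays). Gstm1 changed by 0.35 and -0.40 (-0.76 ± 0.14), Gstm3 by 0.27 and -0.31 (-0.59 ± 0.10) and Gstm7 by 0.21 and -0.37 (-0.57 ± 0.10). The calls for Gstm1 and Gstm3 were each lost without 8 of the 9 arrays, with adjusted p up to 0.243 and 0.153. None of 35 G2/M genes and none of 20 cholesterol genes was called by this contrast in limma, beside 0.135% of all genes. At these list sizes 0 calls is near that share. An unadjusted p under 0.05 was found for 0 of the 35 and 8 of the 20, beside 2398 of all 19938 genes. The medians of the G2/M list were -0.83 over the first 12 h and -0.72 over the second, and those of the cholesterol list -0.18 and -0.45.

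**Figure D5:**
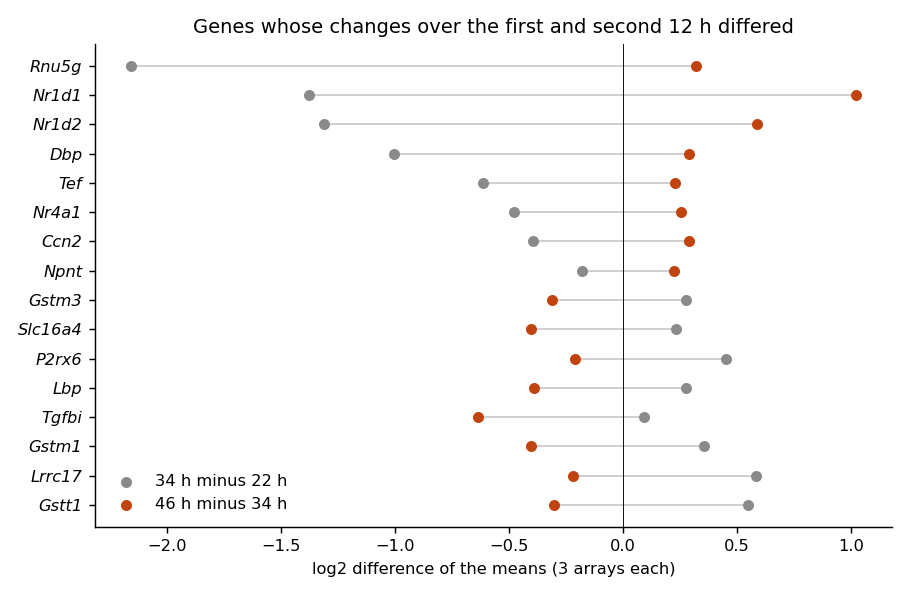
For the 16 genes named for the difference between the first and second 12 h, the log2 change from 22 to 34 h is in grey and that from 34 to 46 h in orange (x axis, differences of means of 3 arrays each). The upper 8 genes fell and then rose on average, and the lower 8 rose and then fell.

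Several lists gave no calls, beside 3.57% of all genes called and 15.6% at an unadjusted p under 0.05. At these list sizes 0 calls is near that share. limma called 0 of 25 proteasome genes (2 at an unadjusted p under 0.05), 0 of 24 respiratory chain genes (0), 0 of 18 ribosomal protein genes (3), 0 of 20 ER folding genes (3) and 0 of 13 heat shock and cold-inducible genes (2). It also called 0 of 24 small nucleolar and spliceosomal RNA genes (1). Of 27 listed genes of the Dlk1-Dio3 imprinted region it called 0 (9 at an unadjusted p under 0.05), with 22 above 0 and 5 below. Of these, 2 were called higher with the values as deposited and 1 with arrays centred on the median. That list did not hold Mir665 (5p strand at chr12:109586331-109586356), a microRNA gene called higher above, so the 0 covers the listed genes only. With centred arrays 1 proteasome gene and 1 ribosomal protein gene were called lower. Differences in these lists lay between -0.31 and 0.33. In data simulated with the spread of these arrays, 40% of genes raised by 0.25, 90% of those raised by 0.5 and 80% of those lowered by 0.5 were called in this comparison, so small shifts in these groups were not detectable for many genes.

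The cell type on the label was checked by markers. Of 14 fibroblast markers 12, including Col1a1, Pdgfra and Vim, lay above the receptor level, and Fap and Thy1 did not. The summed level of that list, as its mean, was 11.06 to 11.13 at 34 h and 11.11 to 11.19 at 46 h, and 1 member, Lum, was called. Of 75 markers of other cell types 3 were called, all lower, which is near the 3.57% of all genes called. Krt19, an epithelial keratin, fell from 7.97, 8.35 and 8.05 to 7.39, 7.47 and 7.28 (-0.74 ± 0.09, adjusted p = 0.00014), and the mean of the 10 epithelium markers was 7.32 to 7.36 at 34 h and 7.21 to 7.26 at 46 h, with 4 of the 10 (Cldn7, Krt19, Krt8 and Cldn4) above the receptor level and 6, Epcam and Cdh1 among them, below it. Syt1, a synaptic vesicle gene, fell by 0.43 ± 0.06, and the mean of the 10 neural markers was 7.46 to 7.51 and then 7.48 to 7.54, with 6 of the 10 above the receptor level. Cd14, of macrophages, fell by 0.28 ± 0.06 and was lost without replicate 3 at either time (adjusted p = 0.056 and 0.0796) and with the values as deposited (0.0798). Its 46 h arrays lay under the receptor level (a fall of at least 1.04-fold), and of the 9 macrophage and blood markers Cd68 and Itgam lay above that level and 7, Cd14, Ptprc and Csf1r among them, below it. The mean of these 9 was 6.94 to 6.99 at 34 h and 6.95 to 6.998 at 46 h. Lists without a called marker also had members above the receptor level, 5 of 11 for skeletal muscle and 4 of 8 for pericytes and smooth muscle. There were 2 of 9 for adipocytes, 2 of 8 for bone and cartilage and 2 of 10 for endothelium. The part of other cells in the falls above was not tested.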

How the data were processed

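Per the labels' protocols, total RNA of 18 samples was labelled with whole-transcript kits, and each sample went onto its own Affymetrix array. For every probe set the authors deposited a linear intensity. Affymetrix Expression Console 1.1 and PLIER 2.0 appear in the submitters' processing notes, without order or settings. The labels state the serum in the medium in more than 1 way. The table held 35556 probe sets, of which 21789 had 1 gene symbol in the platform annotation, 1621 several and 12146 none. Where several named 1 gene (999 genes) the probe set with the highest mean over all arrays was kept. Of the probe sets with 1 symbol 21698 matched RefSeq (GRCm38.p6) by gene identifier.

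Intensities were taken as log2(value + 16) and quantile normalized, and limma 3.58.1 in R 4.3.3 fitted 6 time means to the 18 arrays with 1 shared estimate of the spread. Contrasts were tested with eBayes and adjusted by Benjamini-Hochberg over 19938 genes, with a threshold of 0.05. Array medians lay between 196 and 210 before normalization. They were 202, 196 and 201 at 34 h and 209, 210 and 210 at 46 h. The scale of the arrays thus differed between the times compared, without overlap. Precision is limited by there being 3 arrays per time. Within times, 33.8% of the variance lay along 1 component. The fit was tested on simulated data with 50 genes changed at each size. The comparison, the gene lists and the genes to be named were chosen with earlier results of these data known, so lists are described by counts and medians with no test. Genes were named by rule: all measured core clock genes, the 12 largest called rises and falls, up to 4 called members of each list by smallest p, and up to 8 called genes per direction for the difference between the first and second 12 h, passing over unnamed gene models. Figures were drawn with matplotlib 3.10.9.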

Additional observations from a re-analysis of the deposited data

Results flagged for a closer look

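The change from 22 to 34 h and that from 34 to 46 h differed, by the limma contrast of the 2 changes at an adjusted p under 0.05, for 19 genes named by rule or held by a list. Differences are the second change minus the first, on the log2 scale. Among clock genes they were 2.40 for Nr1d1, 1.90 for Nr1d2, 1.29 for Dbp, 0.84 for Tef and -0.57 for Cry1. Glutathione transferases had -0.85 (Gstt1), -0.76 (Gstm1), -0.59 (Gstm3) and -0.57 (Gstm7). Secreted and matrix proteins had -0.73 (Tgfbi), -0.58 (Mmp19), 0.68 (Ccn2, connective tissue growth factor) and 0.40 (Npnt, nephronectin, an integrin ligand).

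The remaining 6 genes were Rnu5g, a U5 spliceosomal RNA gene, at 2.47, Nr4a1, an orphan nuclear receptor, at 0.73, Lrrc17, a secreted leucine-rich repeat protein, at -0.80, Lbp, which binds lipopolysaccharide, at -0.67, P2rx6, an ATP-gated channel, at -0.67 and Slc16a4, a monocarboxylate transporter family member, at -0.63. Rnu5g stood at 6.68, 5.93 and 7.33 in the 34 h arrays, a spread of 0.70 (SD, n = 3), and at 8.99, 8.63 and 8.79 at 22 h. Its change from 34 to 46 h was 0.32 ± 0.27 and was not called, and its arrays of both times lay under the receptor level (7.41). P2rx6 kept the call of this contrast in all but 1 of the 9 fits that left out an array of 22, 34 or 46 h, and Lrrc17, Nr4a1 and Npnt lost it in 8 of the 9.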

How the results depend on the processing

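Alternatives were followed gene by gene for each gene that the naming rule chose, and not for other genes mentioned. Called genes not followed in this way include Idi1, Hmgcs1, Top2a and the called microRNA genes other than Mir181b-1 and Mir99a. Among those run, directions held for every called gene. Signs turned for 5 genes that were not called: Arntl2 (from -0.0339 to 0.0193 with an array left out, above 0 without replicate 1 at 34 h and, at 0.0014 and 0.0029, without replicates 1 and 3 at 46 h), Per2 (0.0306) and Cry2 (0.0436) with the values as deposited, Per3 (from -0.0245 without replicate 1 to 0.115 without replicate 3 at 46 h) and Rnu5g (from -0.041 without replicate 2 to 0.659 without replicate 3 at 34 h). The count of 712 genes became 1234 with arrays centred on the median (1081 lower), 1411 with the array set, the sign of each array on the first residual component, as a block (447 higher, 964 lower), 1493 with array weights (506 and 987), 304 at an adjusted p under 0.01 (82 and 222) and 106 with 1.5-fold required (16 and 90). Rises numbered 319 with genes above the 95th percentile of receptor genes only. With each array left out in turn, counts ran from 295 to 786 in all, from 74 to 245 higher and from 221 to 549 lower, and of 99 named called genes 58 kept their call without any 1 of the 6 arrays and 41 lost it at least once. Counts fell most without replicate 2 at 34 h (314) or replicate 3 at 46 h (295). Of the 712 calls 534 were also made with the values as deposited and 636 with centred arrays. With the 6 arrays of 34 and 46 h alone 517 genes were called (158 higher, 359 lower), 460 of them among the 712. The named genes whose calls were lost there were Rora, Ddit4, Mt2, Nr4a2, Ccn2, Tpm2, Col12a1, Fbln1, Fbln2, Ptger1, Cdkn2b, Usp18, Irf7, Cd14 and P2rx6. Over the gene lists 136 genes were called, 85 at an adjusted p under 0.01, 44 with 1.5-fold required and 82 to 146 with an array left out.

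The 27 genes whose changes differed between the first and second 12 h were the least stable count: 16 with the values as deposited, 70 with centred arrays, 66 with a larger constant added before the log, 72 above the lower quartile, 91 above the receptor percentile, 4 with the 9 arrays of the 3 times alone, 107 with the array set as a block, 952 with array weights, 56 with a trend and robust fit, 4 at an adjusted p under 0.01, 15 with 1.5-fold required and 2 to 138 with an array left out. The cause of these moves was not tested.

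Replicate numbers were taken as names only. Arrays of 34 and 46 h with the same number had residuals correlated at 0.25, 0.23 and 0.01 for numbers 1, 2 and 3. The number 3 arrays did not correlate best with each other. Replicate 1 at 34 h also correlated better with replicate 3 at 46 h (0.29) than with replicate 1 at 46 h. With the replicate number as a block 572 genes were called, 163 higher and 409 lower, of which 563 were among the 712, and the count for the difference between the 2 changes was 7. Leaving out the arrays of 22, 26, 30 and 40 h 1 at a time was chosen after seeing the data. Dim genes limit what could be called, as their folds are understated on this scale.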
